A study of Homo sapiens with 6 samples.

Results

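In SW480 cells most mitotic kinesin transcripts fell after 24 h with MPM-1, while transport kinesins were mixed, with more rising than falling. Transcripts of 12 of the 13 motors that build and move the mitotic spindle fell, by 1.88-fold to 7.09-fold, while 8 of the 16 motor subunits that carry cargo rose, by 1.45-fold to 1.90-fold, and 3 of the 16 fell (edgeR, adjusted p under 0.05), where 28.8% of all genes tested fell and 27.7% rose. A kinesin was any gene whose symbol is KIF with a number, KIFC1, KIFC2, KIFC3, KIFAP3, KLC1, KLC2 or KLC4, which gave 36 of the 12982 genes measured. Of these, 13 were classed as mitotic, 16 as transport and 7 as other, which takes in motors of cilia and members whose work is neither clear cargo transport nor mitosis. The classes were drawn up from textbook knowledge with earlier results of these data known. A further 11 kinesins of the human family (KIF2B, KIF4B, KIF5A, KIF5C, KIF6, KIF12, KIF17, KIF19, KIF25, KIF26B and KIF28P) were not analysed here.

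RNA sequencing compared SW480, an established human colorectal adenocarcinoma line of wild-type genotype in the labels, after 24 h with MPM-1 (WT4 in the labels), a fluorescent small molecule made to reach mitochondria, and after 24 h with DMSO, its solvent. There were 3 libraries per treatment, and the dose of MPM-1 behind these libraries is not named in the sources used here. No source says that the libraries came from separate cultures, so the p-values measure only the spread between these samples, which may be technical. The comparison asks which transcripts differ between treated and solvent-treated cells of the same line.

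Kinesins are motor proteins that use ATP to walk along microtubules or to take their ends apart. In dividing cells a set of them pushes the spindle poles apart, moves chromosomes and closes the bridge between daughter cells, and many of their genes are switched on in G2 and mitosis. In cells at any stage others pull vesicles, mitochondria, lysosomes and ciliary parts outward, whereas cytoplasmic dynein carries cargo inward. Cell-cycle genes of G2 and mitosis often carry a CHR element and a CCAAT box near their start, bound by the DREAM and MuvB complexes and by NF-Y.

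Sequencing depth ran from 32095456 to 40269820 counts in the DMSO libraries and from 31733667 to 35403841 in the MPM-1 libraries. Treatment separated the libraries along the first principal component (72.8% of the variance). All values below are CPM (counts scaled to library size, with TMM for composition) unless named as FPKM. FPKM are the deposited values, corrected for library size and transcript length, and no TMM was applied to them here. The TMM factors ran from 1.03 to 1.07 with DMSO and from 0.93 to 0.97 with MPM-1. Changes in FPKM and in CPM can therefore differ for reasons other than length. KIF5B, for example, had a log2 change of 0.38 in FPKM and 0.54 in counts. Over all genes the log2 fold change had a median of -0.03, which was -0.18 with scaling by library size alone. Of the colorectal epithelium markers 9 of 10 were measured, and they summed to between 8403 and 9784 CPM with DMSO and to between 12270 and 13830 CPM with MPM-1. Within that list 4 rose (KRT8, KRT18, KRT19 and CDH1), 4 fell (KRT20, CDX2, VIL1 and CDH17), and EPCAM averaged 676 CPM with DMSO and 675.6 CPM with MPM-1. The sum was mostly keratins, with KRT18 going from 1874 to 3482 CPM, while the intestinal factor CDX2 went from 82.5 to 17.9 CPM. Of the fibroblast markers 2 of 6 were measured, summing to 4.79 to 5.47 CPM with DMSO and 2.00 to 2.89 CPM with MPM-1. Of the blood and endothelial markers 2 of 7 were measured, summing to 67.2 to 94.6 CPM with DMSO and 141 to 155 CPM with MPM-1, most of it CD68, a lysosomal protein gene that many cell types use. CD68 rose (log2 fold change 1.08), while the other, CD14, fell from a mean of 9.38 CPM with DMSO to 3.7 CPM with MPM-1 (log2 fold change -1.34). The part of these differences in the kinesin results was not tested.

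The DNA before the start of 8 kinesins is shown because mitotic and transport kinesins held cell-cycle elements in different shares. Sequences are RefSeq promoters on GRCh38.p14, read 5′ to 3′ on the strand of the gene. Each run starts at most 150 bases before the transcription start and takes the bases that GENCODE release 29 assigns to no exon. Capitals mark a CHR (TTTGAA) or a CCAAT box (CCAAT) on either strand, so the letters also appear as their complements TTCAAA and ATTGG. KIF11 (chr10:92592980-92593129, + strand) and KIF4A (chrX:70289980-70290089, + strand) hold both elements. KIF18B (chr17:44947774-44947911, - strand), KIF14 (chr1:200620752-200620901, - strand), KIF20B (chr10:89701440-89701589, + strand) and KIF22 (chr16:29790601-29790718, + strand) show CCAAT boxes. KIF2A (chr5:62306056-62306161, + strand), the mitotic kinesin that rose, shows neither, and KIF5B (chr10:32056432-32056575, - strand) is a transport motor with both.
KIF11: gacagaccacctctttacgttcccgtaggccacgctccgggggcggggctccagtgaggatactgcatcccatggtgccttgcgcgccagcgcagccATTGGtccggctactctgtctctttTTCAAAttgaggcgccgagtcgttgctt
KIF4A: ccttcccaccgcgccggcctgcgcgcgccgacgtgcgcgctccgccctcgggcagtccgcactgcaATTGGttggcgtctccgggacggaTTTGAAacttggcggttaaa
KIF18B: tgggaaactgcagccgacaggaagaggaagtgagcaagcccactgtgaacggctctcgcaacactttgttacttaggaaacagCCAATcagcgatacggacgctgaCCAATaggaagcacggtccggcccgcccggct
KIF14: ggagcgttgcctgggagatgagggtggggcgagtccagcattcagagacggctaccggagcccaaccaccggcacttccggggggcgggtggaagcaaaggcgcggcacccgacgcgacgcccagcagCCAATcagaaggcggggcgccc
KIF20B: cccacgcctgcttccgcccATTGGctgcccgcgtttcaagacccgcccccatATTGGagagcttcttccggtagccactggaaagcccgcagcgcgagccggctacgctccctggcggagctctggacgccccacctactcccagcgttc
KIF22: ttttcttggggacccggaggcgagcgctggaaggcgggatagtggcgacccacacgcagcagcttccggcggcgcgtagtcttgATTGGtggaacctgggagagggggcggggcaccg
KIF2A: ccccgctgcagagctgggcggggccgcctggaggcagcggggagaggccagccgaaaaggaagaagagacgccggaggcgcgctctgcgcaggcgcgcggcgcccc
KIF5B: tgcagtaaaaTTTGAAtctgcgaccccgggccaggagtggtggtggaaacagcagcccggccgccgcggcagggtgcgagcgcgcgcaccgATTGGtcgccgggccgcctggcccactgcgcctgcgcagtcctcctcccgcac

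A promoter window of 250 bases before to 50 after the first start listed was found for 29 of the 36 kinesins. The CHR was present in 9 of 13 mitotic kinesins (69.2%), in 1 of 11 transport kinesins (9.09%) and in none of the 5 other kinesins with a window. It was present in 9.31% of the 9595 windows of genes tested and in 16.5% of the 776 windows of genes that fell strongly, a term defined with the mitotic results. The CCAAT box was present in 10 of 13 mitotic kinesins (76.9%) and in 3 of 11 transport kinesins (27.3%). It was present in 36.6% of the windows of genes tested and in 45.4% of those that fell strongly. Both stood together in 8 of 13 mitotic windows (61.5%), against 3.95% of the windows of genes tested and 9.54% of those that fell strongly. An E2F-like match (TTTGGCGC, TTTCGCGC, TTTCCCGC or TTTGCCGC, either strand) was found in KIF15 alone among the 29, and in 5.45% of the windows of genes tested. In KIF15 it began 43 bases before the start, and a CHR followed directly at 35 bases before. These letter matches describe the windows and were not measured as binding in these cells.

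The 9 mitotic kinesins with a CHR in the window were KIF4A, KIF11, KIF14, KIF15, KIF18A, KIF18B, KIF20B, KIF23 and KIFC1, and their log2 fold changes ran from -2.42 to -1.01. The 4 without it were KIF20A at -2.83, KIF2C at -1.35, KIF22 at -0.91 and KIF2A at 0.59, so the largest fall was in a window without TTTGAA. No other letters were searched for the CHR. KIF20A carried CCAAT boxes that began 94 and 67 bases before the start. In KIF11 the CCAAT box began 53 and the CHR 28 bases before the start, in KIF4A these were 58 and 34, and in KIF18A 45 and 10. In KIF14, KIF18B, KIFC1 and KIF20B the CHR lay after the start. KIF5B had its CHR further out, 140 bases before the start, and its transcript rose by 0.54 on the log2 scale.

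**Figure D1:**
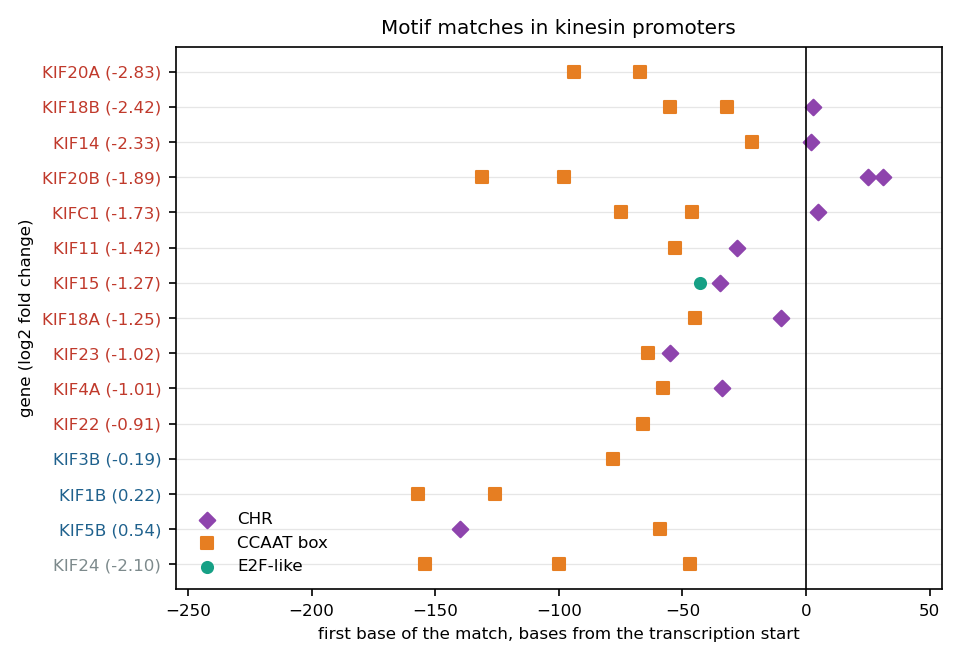
Matches to the CHR, the CCAAT box and the E2F-like motifs in the 15 kinesin windows that hold any, with the distance of the first base of the match from the transcription start in bases on the x axis. Gene names carry the log2 fold change of counts (MPM-1 over DMSO) and are coloured by class; 11 of the 15 rows are mitotic kinesins, and their CCAAT boxes lie between 131 and 22 bases before the start.

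Among the mitotic kinesins, 12 of 13 fell and 1 rose at an adjusted p under 0.05 (edgeR's quasi-likelihood test, Benjamini-Hochberg over all genes). Strongly fallen or risen genes are those with an adjusted p below 0.01 whose log2 fold change reached 1 in size. Of the 13, 11 fell strongly (9 to 12 over the alternatives), against 8.75% of all genes tested, and none rose strongly, against 5.58%. In 12 of 13 every MPM-1 library lay below every DMSO library, which held for 33.3% of all genes tested. In the remaining gene, KIF2A, every MPM-1 library lay above, which held for 31.0% of all genes tested. The median log2 fold change of the class was -1.35, beside -0.03 for all genes. In bulk RNA, fewer cells in mitosis and less RNA per cell cannot be told apart. The proliferation marker MKI67 went from 193 to 43.0 CPM in the same libraries (log2 fold change -2.17), and its part in the kinesin result was not tested.

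The motors of cytokinesis had the lowest median of the mitotic groups, -2.11 over 4 genes, all of which fell strongly. KIF20A (ENSG00000112984, chr5:138178719-138187715, + strand, GRCh38), which brings regulators of division to the central spindle, measured 76.6, 70.6 and 62.9 CPM with DMSO and 8.24, 12.3 and 9.11 CPM with MPM-1. The treatments were far apart, and the log2 fold change was -2.83 ± 0.15 (SE, adjusted p = 9.55e-07, edgeR), the largest fall among the 36 kinesins. KIF14, a motor of the midbody that binds PRC1 and citron kinase, measured 22.9, 20.2 and 21.8 CPM with DMSO and 4.79, 4.26 and 3.84 CPM with MPM-1, a log2 fold change of -2.33 ± 0.15. KIF20B, which acts in the last step of cell separation, measured 37.5, 46.0 and 46.2 CPM with DMSO. With MPM-1 it measured 8.27, 15.9 and 10.8 CPM, a wider spread than in its neighbours, with a log2 fold change of -1.89 ± 0.21. KIF23 is the motor subunit of centralspindlin, the complex that bundles microtubules between the separating chromosomes. It measured 57.5, 66.9 and 65.0 CPM with DMSO and 30.4, 33.7 and 29.5 CPM with MPM-1, a log2 fold change of -1.02 ± 0.09, the smallest of the 4. KIF23 lay at the edge of the strong size, at -0.998 with DESeq2's size factors and from -0.996 to -0.962 without DMSO replicate 2 or 3 or MPM-1 replicate 1 or 3.

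The 3 motors of spindle assembly all fell strongly. KIF11, the plus-end motor known as Eg5 that pushes the poles apart, measured 64.0, 63.4 and 59.2 CPM with DMSO and 23.7, 24.9 and 21.1 CPM with MPM-1. The 3 libraries of each treatment were close to each other, and the log2 fold change was -1.42 ± 0.09 (adjusted p = 2.87e-06, edgeR). KIF15, which can keep a bipolar spindle when KIF11 is blocked, measured 8.43, 13.3 and 10.5 CPM with DMSO and 5.35, 4.13 and 3.90 CPM with MPM-1, a log2 fold change of -1.27 ± 0.22. With limma on log2(FPKM + 1) KIF15 was at -0.825, short of the strong size. KIFC1, a minus-end motor that pulls poles together and clusters extra centrosomes, measured 71.5, 60.6 and 52.6 CPM with DMSO and 17.6, 20.6 and 17.4 CPM with MPM-1, a log2 fold change of -1.73 ± 0.13. The motor that pushes the poles out and the motor that pulls them in were thus both lower in all 3 MPM-1 libraries.

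The motors of chromosome arms, KIF4A and KIF22, both fell. KIF4A, which also limits microtubule growth in the midzone, measured 27.96, 28.1 and 27.0 CPM with DMSO and 14.3, 14.4 and 12.6 CPM with MPM-1, a log2 fold change of -1.01 ± 0.10. It too was at the edge of the strong size, at -0.989 with DESeq2's size factors, -0.997 without DMSO replicate 2 and -0.934 without MPM-1 replicate 3. KIF22, which pushes chromosome arms from the poles, measured 91.3, 91.5 and 80.5 CPM with DMSO and 49.6, 46.0 and 44.3 CPM with MPM-1. Its log2 fold change was -0.91 ± 0.09, so it fell by 1.88-fold without reaching the size called strong.

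Among the motors that act on microtubule ends 3 fell strongly and 1 rose. KIF18B (ENSG00000186185, chr17:44924709-44947711, - strand), which shortens astral microtubules, measured 31.5, 34.0 and 30.2 CPM with DMSO and 4.69, 6.63 and 6.52 CPM with MPM-1, a log2 fold change of -2.42 ± 0.15. KIF18A, which dampens chromosome movement at the spindle equator, measured 17.8, 19.5 and 21.1 CPM with DMSO and 6.86, 9.79 and 7.86 CPM with MPM-1, a log2 fold change of -1.26 ± 0.16. KIF2C, the depolymerase known as MCAK that corrects wrong attachments at kinetochores, measured 84.5, 72.0 and 74.0 CPM with DMSO and 31.6, 31.4 and 27.6 CPM with MPM-1, a log2 fold change of -1.35 ± 0.10.

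KIF2A (ENSG00000068796, chr5:62306162-62537249, + strand) belongs to the same kinesin-13 family of depolymerases as KIF2C and is also used outside mitosis, for example in neurons and at cilia. It measured 23.7, 22.5 and 20.8 CPM with DMSO and 32.8, 35.4 and 32.9 CPM with MPM-1, and was the mitotic kinesin that rose (log2 fold change 0.59 ± 0.09, adjusted p = 5.35e-04, edgeR). Per transcript length, the ratio of KIF2A to KIF2C FPKM was 0.284, 0.312 and 0.262 with DMSO and 1.02, 1.04 and 1.13 with MPM-1, so KIF2C was the higher of the pair in every DMSO library and KIF2A in every MPM-1 library. The span of KIF2A overlaps IPO11 on the same strand over 57.7% of its length, and IPO11 fell (log2 fold change -0.46, adjusted p = 0.00837, edgeR). Without KIF2A, 12 of 12 mitotic kinesins fell, with a median of -1.38.

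**Figure D2:**
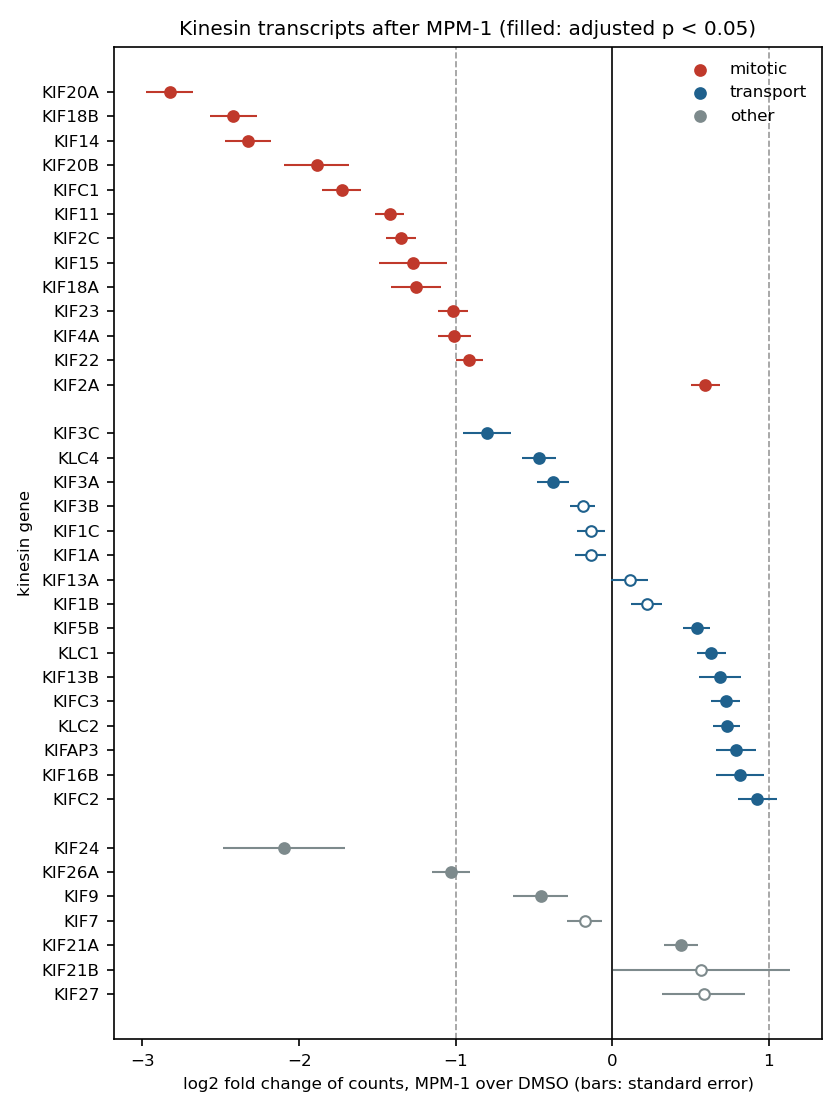
Log2 fold change of counts (MPM-1 over DMSO, edgeR) on the x axis for each of the 36 kinesins, with bars of 1 standard error; filled points passed an adjusted p under 0.05 and the dashed lines mark a log2 fold change of 1 in size. The mitotic kinesins run from -2.83 to -0.91 apart from KIF2A at 0.59, and the transport kinesins from -0.80 to 0.93.

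Of the 16 transport kinesins, 8 rose and 3 fell, beside 27.7% and 28.8% of all genes tested, and 5 did not pass the test. With scaling by library size alone 8 rose and 6 fell, and on log2 FPKM 8 rose and 5 fell. None changed strongly in either direction. The median log2 fold change was 0.38, and every MPM-1 library lay above every DMSO library in 8 of 16 and below in 4 of 16, where 31.0% and 33.3% of all genes tested did so.

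In kinesin-1, the main outward motor for vesicles and mitochondria, 3 of 4 subunits rose and 1 fell, where 27.7% and 28.8% of all genes tested did so. KIF5B (ENSG00000170759, chr10:32009010-32056431, - strand), the heavy chain used in most tissues, measured 206, 207 and 219 CPM with DMSO and 337, 275 and 307 CPM with MPM-1. All 3 MPM-1 libraries were higher, with a log2 fold change of 0.54 ± 0.09 (adjusted p = 6.02e-04, edgeR). Kinesin light chains link the heavy chain to cargo. KLC1 measured 120, 109 and 115 CPM with DMSO and 197, 178 and 159 CPM with MPM-1 (log2 fold change 0.63 ± 0.09), and KLC2 rose by 0.73 ± 0.09 on the log2 scale. KLC4 went the other way, from 25.2, 22.7 and 21.6 CPM to 16.4, 17.5 and 16.3 CPM, a log2 fold change of -0.47 ± 0.11 (adjusted p = 0.00472, edgeR). The FPKM of KLC2 over that of KLC4 was 1.37, 1.06 and 1.28 with DMSO and 2.51, 2.52 and 2.71 with MPM-1.

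Some of these spans share bases with other genes, and the sources used here do not say whether counting used strand. KLC4 overlaps CUL7 on the opposite strand over 38.4% of its span, and CUL7 fell too (log2 fold change -0.48). KLC1 overlaps APOPT1 on the same strand over 29.2% of its span, and APOPT1 rose (log2 fold change 0.43). KLC1 also shares 80.7% of its span with AL139300.1, an annotated gene on the same strand whose level varied widely between MPM-1 libraries (6.03 ± 10.4 CPM, SD, n = 3). Other kinesins that passed the test overlap antisense genes that were not among the genes measured. Such overlaps cover 69.1% of the span of KIF3A, 33.5% of KIF9, 31.2% of KIF2C and 21.5% of KLC2. The values of all these kinesins are uncertain to that extent.

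In kinesin-2, which serves cilia and vesicles as 2 motor chains with an adaptor, the motor chains and the adaptor moved apart. KIF3C measured 15.8, 17.8 and 16.5 CPM with DMSO and 8.04, 11.2 and 9.62 CPM with MPM-1, the largest fall among the transport kinesins (log2 fold change -0.80 ± 0.15, adjusted p = 0.00167, edgeR). KIF3A, the chain that pairs with KIF3B or KIF3C, fell by 0.38 ± 0.10 on the log2 scale (adjusted p = 0.0103, edgeR), and its adjusted p was 0.055 without MPM-1 replicate 3. KIF3B had a log2 fold change of -0.19 ± 0.08 (adjusted p = 0.0715, edgeR), which did not pass, although its libraries did not overlap. The adaptor KIFAP3 rose, from 16.2, 14.6 and 13.2 CPM to 24.1, 28.6 and 23.2 CPM, a log2 fold change of 0.79 ± 0.13. The FPKM of KIFAP3 over that of KIF3A went from 1.36 ± 0.12 to 3.07 ± 0.29, and over that of KIF3C from 1.59 ± 0.23 to 4.81 ± 0.56 (SD, n = 3 each).

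In kinesin-3, motors of endosomes and secretory vesicles, 2 of 6 rose and none fell. The share that rose, 33.3% of so few genes, stands near the 27.7% of all genes tested, where 28.8% fell. KIF16B, which carries early endosomes outward, measured 8.91, 7.85 and 9.31 CPM with DMSO and 17.7, 14.1 and 14.1 CPM with MPM-1 (log2 fold change 0.82 ± 0.15). KIF13B, which binds DLG1, measured 15.3, 11.4 and 13.5 CPM with DMSO and 20.9, 22.4 and 21.4 CPM with MPM-1 (log2 fold change 0.69 ± 0.13). The other 4 did not pass the test. KIF1A and KIF1C had log2 fold changes of -0.14 each, KIF1B of 0.22 (adjusted p = 0.0819, edgeR) and KIF13A of 0.11, and in all 4 the treatments overlapped in CPM. In FPKM, every MPM-1 library of KIF1A and KIF1C lay below every DMSO library. With scaling by library size alone KIF1C (adjusted p = 0.0136, edgeR) and KIF1A (adjusted p = 0.0369, edgeR) fell. KIF1C also fell on log2 FPKM with pseudocounts of 1 and 0.1 (adjusted p = 0.0416 and 0.0398, limma). KIF1B passed without DMSO replicate 1 (adjusted p = 0.037, edgeR) or without MPM-1 replicate 2 (adjusted p = 0.0298, edgeR). KIF13A was at -0.04 with scaling by library size alone, and at -0.20 and -0.24 on log2 FPKM with pseudocounts of 1 and 0.1.

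The kinesin-14 members classed as transport both rose, as did 27.7% of all genes tested. KIFC2 measured 45.9, 41.6 and 46.9 CPM with DMSO and 102, 82.1 and 71.6 CPM with MPM-1, the largest rise among the 36 kinesins that passed (log2 fold change 0.93 ± 0.12, adjusted p = 1.98e-04, edgeR). Its MPM-1 libraries were spread, and without MPM-1 replicate 3 the log2 fold change was 1.05. KIFC3, a minus-end motor of cell junctions and the Golgi, measured 66.7, 54.6 and 55.8 CPM with DMSO and 97.4, 96.0 and 98.9 CPM with MPM-1 (log2 fold change 0.72 ± 0.09). KIFC1, of the same family but with a place in the spindle, was 3.32-fold lower.

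**Figure D3:**
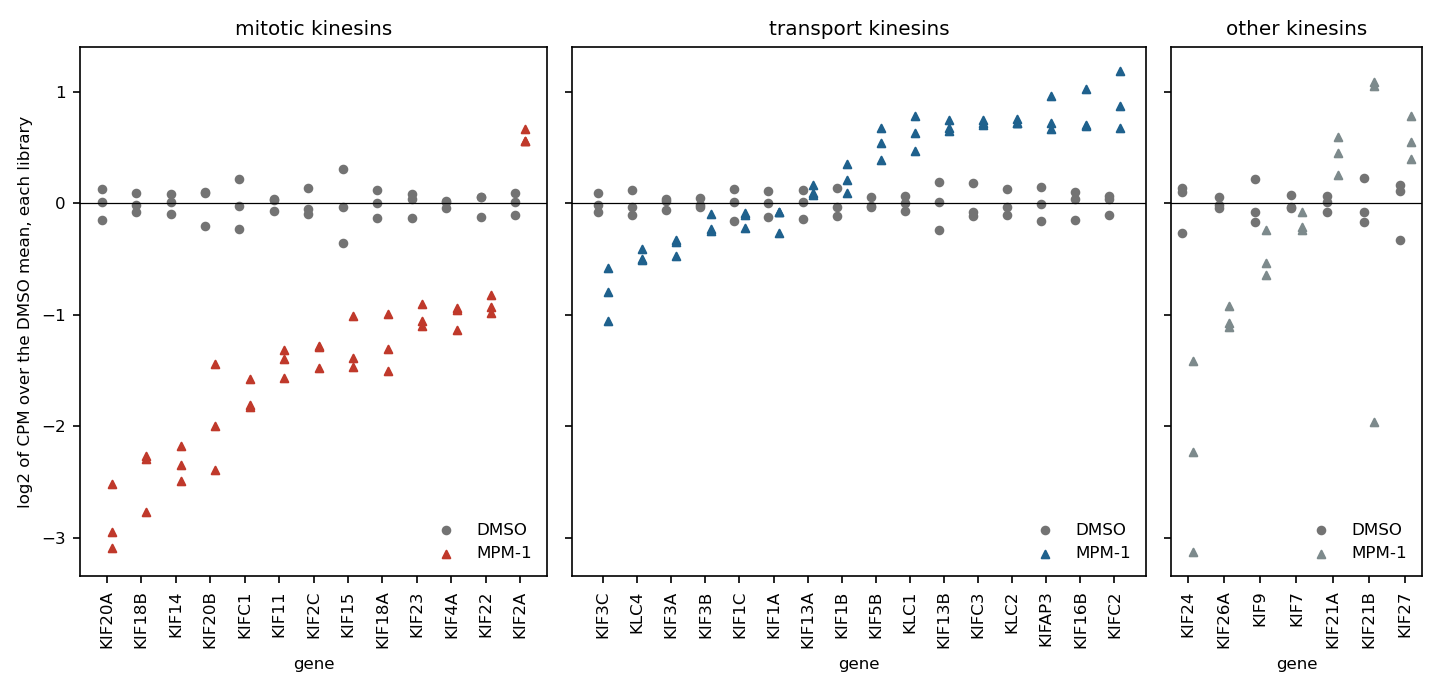
CPM of each library relative to the DMSO mean of the gene, on a log2 scale, for the mitotic, transport and other kinesins, with circles for the 3 DMSO libraries and triangles for the 3 MPM-1 libraries. The treatments separate in 13 of 13 mitotic, 12 of 16 transport and 6 of 7 other kinesins, beside 31.0% of all genes tested with MPM-1 wholly above and 33.3% wholly below, and in KIF21B 1 MPM-1 library lies far below the other two.

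Among the 7 other kinesins 3 fell, 1 rose and 3 did not pass the test, shares of 42.9% and 14.3% that for so few genes stand near the 28.8% and 27.7% of all genes tested. KIF24, a regulator that holds back the growth of cilia in dividing cells, measured 3.46, 4.56 and 4.44 CPM with DMSO and 0.886, 1.56 and 0.477 CPM with MPM-1. It fell strongly (log2 fold change -2.10 ± 0.39, adjusted p = 0.00144, edgeR) at a low level, 0.691 ± 0.113 FPKM with DMSO and 0.145 ± 0.084 with MPM-1 (SD, n = 3 each), with a log2 range from -2.59 to -1.75 when single libraries were left out. KIF26A, a member without motor activity that acts in signalling, fell strongly as well, from 20.4, 21.5 and 20.1 CPM to 9.58, 9.82 and 10.96 CPM (log2 fold change -1.03 ± 0.12), and was at -0.98 without MPM-1 replicate 1 or 2. KIF9, a motor of motile cilia, fell by 0.46 ± 0.17 on the log2 scale (adjusted p = 0.0458, edgeR), a call that was lost without any library but MPM-1 replicate 2 (adjusted p from 0.0542 to 0.183, edgeR) and with DESeq2's size factors (adjusted p = 0.0504, edgeR).

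KIF21A, which halts microtubule growth at the cell edge, measured 20.5, 21.8 and 22.6 CPM with DMSO and 29.5, 25.8 and 32.6 CPM with MPM-1, and rose (log2 fold change 0.44 ± 0.11, adjusted p = 0.00733, edgeR). With scaling by library size alone its adjusted p was 0.0522. Its near relative KIF21B measured 13.1, 10.6 and 9.99 CPM with DMSO and 23.4, 23.9 and 2.89 CPM with MPM-1, so MPM-1 replicate 3 lay below all DMSO libraries and the other two above them. The log2 fold change was 0.57 ± 0.56 (adjusted p = 0.412, edgeR), and without MPM-1 replicate 3 it was 1.09 (adjusted p = 0.000829, edgeR). That library held 97 counts of KIF21B where the other MPM-1 libraries held 712 and 734. Among 11691 genes at least as high as the lowest kinesin, 15 had this library at least 2 log2 units below both other MPM-1 libraries. KIF7, a kinesin of the Hedgehog pathway in cilia, and its relative KIF27 had log2 fold changes of -0.18 (adjusted p = 0.21, edgeR) and 0.58 (adjusted p = 0.0859, edgeR). KIF7 shares 47.7% of its span with TICRR on the opposite strand, a replication gene that fell (log2 fold change -1.67).

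Per transcript length, the order of the family changed. KIF22 was the most abundant kinesin transcript with DMSO, at 44.99 ± 2.32 FPKM, followed by KLC1 at 41.5 ± 1.94 and KIF5B at 36.6 ± 1.75 (SD, n = 3 each). The libraries of KLC1 overlapped those of KIF22, so the order of this pair lies within their spread. With MPM-1 the highest were KLC1 at 60.7 ± 6.32, KIF5B at 47.8 ± 3.90, KIFC3 at 26.6 ± 0.32 and KIFC2 at 23.3 ± 4.04, while KIF22 took rank 5 at 22.3 ± 1.18. The libraries of KIFC2 overlapped those of both KIFC3 and KIF22. KIF20A went from rank 6 to rank 22 of 36, KIF18B from 15 to 32 and KIFC1 from 5 to 13. KIF2A went from rank 16 to 7 and was the highest mitotic kinesin after KIF22 with MPM-1, at 10.3 ± 0.41 FPKM beside 9.69 ± 0.73 for KIF2C, with overlapping libraries. KIF9 was lower by more in FPKM, from 12.5 ± 1.27 to 6.19 ± 2.21, than in counts, and the 2 columns are not a fixed multiple of each other in this gene.

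**Figure D4:**
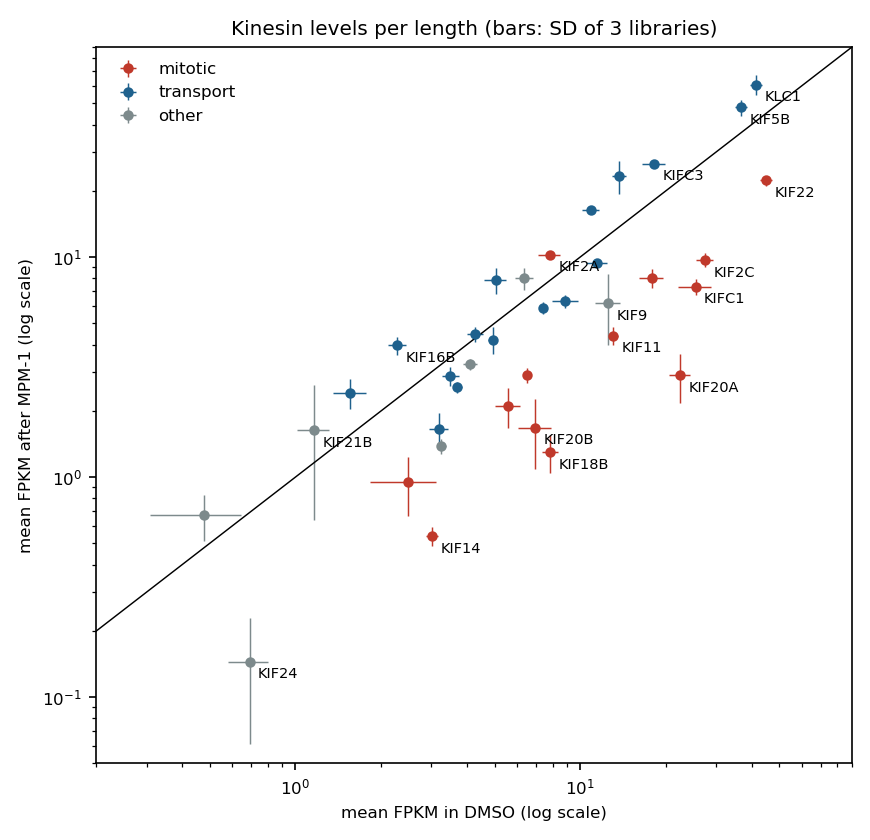
Mean FPKM of each kinesin with DMSO (x axis) and with MPM-1 (y axis), both on log scales, with bars of 1 SD over 3 libraries and a line of equal level. Mitotic kinesins other than KIF2A lie below the line, and KLC1 and KIF5B stand at the top right, at 60.7 and 47.8 FPKM with MPM-1.

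The make-up of the kinesin transcripts therefore differed between treatments in every library. Mitotic kinesins made up 48.1%, 49.0% and 47.5% of the summed kinesin FPKM with DMSO and 22.1%, 24.6% and 22.6% with MPM-1. Transport kinesins made up 44.8%, 43.6% and 45.4% with DMSO and 72.1%, 68.8% and 69.9% with MPM-1. In sums, mitotic kinesins went from 191 ± 6.89 to 74.3 ± 5.49 FPKM and transport kinesins from 177 ± 3.89 to 226 ± 11.8 FPKM, while all 36 went from 397 ± 9.64 to 322 ± 12.1 FPKM (SD, n = 3 each). In CPM, which carries TMM, all 36 went from 1473 ± 42.5 to 1369 ± 63.6 (SD, n = 3 each), and the treatments overlapped. The lowest DMSO library stood at 1438.3 CPM and the highest MPM-1 library at 1438.9 CPM, so a lower total depends on the scaling. The ratio of mitotic to transport FPKM was 1.08 ± 0.04 with DMSO and 0.329 ± 0.026 with MPM-1. Of single pairs, KIF5B was 2.66, 2.70 and 3.07 times KIF11 in FPKM with DMSO and 11.8, 9.13 and 12.1 times with MPM-1.

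**Figure D5:**
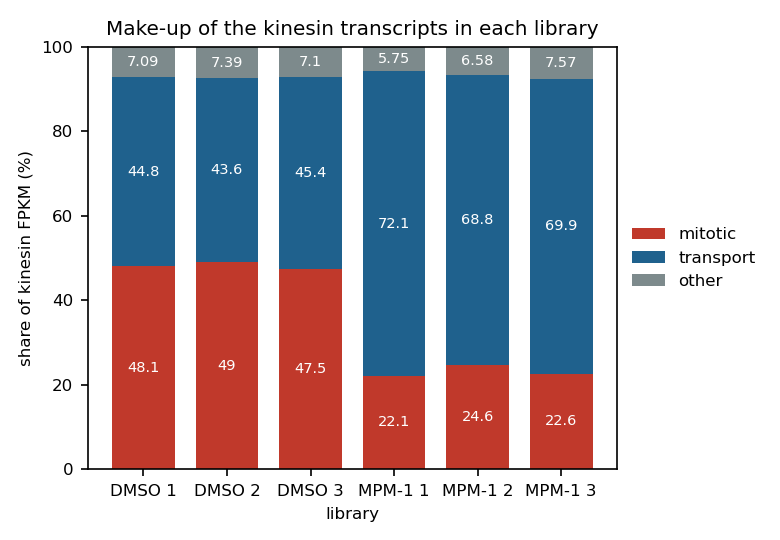
Share of the summed kinesin FPKM taken by mitotic, transport and other kinesins (y axis, percent) in each of the 6 libraries. The mitotic share is 47.5% to 49.0% in the DMSO libraries and 22.1% to 24.6% in the MPM-1 libraries.

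Of 19 listed partners of mitotic kinesins 16 fell, 12 of them strongly, and 3 rose, with a median log2 fold change of -1.13. Of all genes tested 28.8% fell, 8.75% fell strongly and 27.7% rose. The largest falls were in PLK1, the mitotic kinase that KIF20A binds, at -2.02 ± 0.09, in BIRC5, the survivin subunit of the chromosomal passenger complex, at -1.96 ± 0.09, and in CENPE at -1.86 ± 0.15. CENPE is itself a kinesin, the kinetochore motor of kinesin-7, whose symbol lies outside the KIF series, and it measured 17.9, 14.9 and 18.6 CPM with DMSO and 4.76, 4.72 and 4.68 CPM with MPM-1. Also lower were the binding partners of the motors named above: PRC1 of KIF4A and KIF14 at -1.13, RACGAP1 of KIF23 at -0.88, CIT of KIF14 at -1.22 and TPX2 of KIF11 and KIF15 at -0.95. NEK7 (0.63 ± 0.10), NEK9 (0.29 ± 0.11, adjusted p = 0.0399, edgeR) and NUMA1 (0.28 ± 0.09) rose. NEK9 and NEK7 belong to the kinase cascade that acts on KIF11, and its other member NEK6 fell, at -0.77. With scaling by library size alone NEK9 (adjusted p = 0.323, edgeR) and NUMA1 (adjusted p = 0.185, edgeR) did not pass, and neither passed with limma on log2(FPKM + 1), at adjusted p = 0.421 and 0.339, or on log2(FPKM + 0.1), at 0.415 and 0.342. NEK9 also lost its call without DMSO replicate 1 or 2 or without MPM-1 replicate 1 or 2 (adjusted p from 0.0646 to 0.108, edgeR), and NUMA1 without DMSO replicate 2 (adjusted p = 0.0675, edgeR).

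Of 23 listed adaptors that tie transport kinesins to cargo 21 were measured, of which 7 rose, 2 fell and 12 did not pass the test, shares of 33.3% and 9.52% beside 27.7% and 28.8% of all genes tested, with a median of 0.19. RAB11FIP5, an adaptor of recycling endosomes, rose by 0.87 ± 0.11 on the log2 scale. The scaffolds SPAG9 and MAPK8IP3, which bind kinesin-1, rose by 0.61 and 0.39. The mitochondrial adaptors TRAK1, TRAK2, RHOT1 and RHOT2 had log2 fold changes of 0.19, 0.12, 0.17 and -0.08, none of which passed. MADD, which links KIF1A and KIF1B to RAB3 vesicles, fell by 0.39, and KIF1BP, a protein that binds and blocks several motors, fell by 0.38 on the log2 scale. MADD lost its call without DMSO replicate 3 (adjusted p = 0.0531, edgeR) or MPM-1 replicate 3 (adjusted p = 0.0787, edgeR).

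Cytoplasmic dynein, with its cofactor dynactin, is the main inward motor. Of 30 listed subunits and regulators 29 were measured, of which 16 rose, 2 fell and 11 did not pass the test, with a median of 0.29, and none changed strongly. These are 55.2% and 6.90% of the list, beside 27.7% and 28.8% of all genes tested. The heavy chain DYNC1H1 measured 105, 102 and 116 CPM with DMSO and 195, 156 and 172 CPM with MPM-1 (log2 fold change 0.69 ± 0.10). The largest rises were in the adaptor BICD1 (0.87 ± 0.15), the regulator NDEL1 (0.79 ± 0.13) and the dynactin subunit ACTR10 (0.75 ± 0.08). The dynactin subunits DCTN3 and ACTR1B fell by 0.55 ± 0.08 and 0.34 ± 0.10 on the log2 scale.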

How the data were processed

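The members of the kinesin list, its classes and the partner lists were chosen from symbols and textbook knowledge with earlier results of these data known. RNA was sequenced by a company from 3 DMSO and 3 MPM-1 libraries of SW480 cells, prepared with a kit for mRNA, and samples were grouped by the treatment in the labels. The authors deposited, per gene, whole-number counts and FPKM for each library. The submitters' processing notes name HISAT2, DESeq2 and mm10, a mouse build, while the gene identifiers are human Ensembl IDs. The counter and the annotation are not given in the sources used here. A log2 fold change and an FDR (adjusted p-value) that the authors deposited hold their own comparison and were not used. Coordinates and overlaps were taken from GENCODE release 29 (GRCh38), and 855 genes without an Ensembl ID have none.

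Counts were tested with edgeR 4.0.16 in R 4.3.3 (quasi-likelihood, TMM, 6 libraries, no covariates), with Benjamini-Hochberg adjustment over all 12982 genes. Rose and fell mean an adjusted p under 0.05. The SE is the size of the log2 fold change over the square root of F. Every gene had at least 115 counts in all, so lower genes were not analysed here. The script was tested on simulated data. Libraries within a treatment differed beyond sampling noise (chi-square per gene from 15.4 to 33.3), so they are not repeat reads of 1 library. This does not show that they came from separate cultures, and the test treated each library as a sample. The alternatives were DESeq2 1.42.0 (size factors, or its test), library size alone, limma 3.58.1 on log2(FPKM + 1) and log2(FPKM + 0.1), a mean of at least 50 counts, a replicate block, each library left out, KIF2A outside the mitotic class, and shares of CPM. All kinesins are accounted for. Values per library are given for strongly changed kinesins, the highest of each class and others the text describes, and in each partner list the 3 largest rises and falls are named, beside some partners added for their role. Some named adaptors are not reported here. No proteins were analysed here.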

Additional observations from a re-analysis of the deposited data

How the results depend on the processing

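Over 13 other settings, the log2 fold changes of the 36 kinesins kept their direction and their side of the threshold in 443 cases, came to pass the test in 11, ceased to pass in 11 and turned in 3. The 3 were all KIF13A, which passed in none of them, at -0.0425 with scaling by library size alone and at -0.20 and -0.24 with limma on log2(FPKM + 1) and log2(FPKM + 0.1). KIF9, KIF21A and KIF3A ceased to pass in some settings, and 26 kinesins were called alike in every setting. Same-numbered libraries did not clearly deviate together (correlations of 0.02, 0.11 and -0.07). With 3 libraries per treatment this cannot exclude that the numbers pair the samples. With the replicate block KIF9 lost its call (adjusted p = 0.0671, edgeR), the other kinesins kept theirs, and 17 rather than 18 kinesins fell. Of the partners named, NEK9 lost its call with the block (adjusted p = 0.0594, edgeR).

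With scaling by library size alone the median log2 fold change was -1.50 for mitotic, 0.23 for transport, -0.33 for other and -0.435 for all kinesins, 6 transport kinesins fell (KIF1A, KIF1C and KIF3B joined, as did KIF7 among the others) and 0 other kinesins rose. With limma on log2(FPKM + 1), 5 transport kinesins fell with a class median of 0.21, and 0 other kinesins rose or fell strongly. With log2(FPKM + 0.1), 5 transport kinesins fell and 0 other kinesins rose, and the medians were -1.49 (mitotic), 0.22 (transport), -0.32 (other) and -0.41 (all). Without KIF2A in the class 0 mitotic kinesins rose, and the mitotic share of kinesin FPKM was 46.2% with DMSO and 19.9% with MPM-1. As shares of CPM, mitotic kinesins made up 40.6% and 17.7%, transport kinesins 53.3% and 76.1%, and other kinesins 6.09% with DMSO. Leaving out single libraries gave a mitotic median from -1.41 to -1.27, 0 to 1 transport kinesins that rose strongly, 1 to 2 other kinesins that fell strongly, 1 to 2 that rose and 0 to 1 that rose strongly, and 0 to 2 of all kinesins that rose strongly. The rises were without MPM-1 replicate 3 (KIFC2 and KIF21B), and the single fall was without MPM-1 replicate 1 or 2. The cause of these differences was not tested. With 3 libraries per treatment and low counts, KIF24 and KIF27 have the widest errors after KIF21B.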

Other observations

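The light chain gene KLC3, which the rule for members leaves out, measured 4.97 ± 0.34 CPM with DMSO and 3.84 ± 1.00 CPM with MPM-1 (SD, n = 3 each), with a log2 fold change of -0.37 that did not pass the test (adjusted p = 0.194, edgeR) and overlapping libraries.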
